A study of Mus musculus with 89 samples.

Results

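Lungs of SP-D-/- mice were compared directly with lungs of C57BL/6 mice after ozone alone, gene by gene, on microarrays. The comparison took the 10 of 89 arrays whose titles name ozone at 12 hours without the allergen: 4 SP-D-/- arrays, numbered replicates 2 to 5, and 6 C57BL/6 arrays, numbered 1 to 6. SP-D-/- mice lack surfactant protein D, the product of Sftpd. Both groups were male mice aged 7 to 8 weeks that breathed 3 ppm ozone for 2 hours and were killed 12 hours later, with no Aspergillus fumigatus (Af) sensitisation or challenge. RNA came from the left lobe of perfused lungs, labelled as whole lung homogenate, and was amplified and hybridised to a plate of mouse expression arrays. The labels name neither the part of Sftpd that was deleted, nor how far the mutant line was crossed to C57BL/6, nor a C57BL/6 substrain, and beyond the replicate numbers nothing states that the arrays are separate animals. The p-values therefore measure the spread between arrays. The study also holds the same 2 genotypes in air and at 24, 96 or 168 hours after Af challenge, with air or ozone, and BALB/c groups.

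SP-D and its relative SP-A are collectins, soluble lectins that alveolar type 2 and airway club cells secrete into the fluid lining the lung. They bind sugars on microbes, among them fungi, and act on alveolar macrophages. Mice without SP-D are known to build up surfactant phospholipid and foamy, lipid-laden macrophages. Ozone is an oxidant gas that injures the epithelium of the airways and of the alveolar ducts and calls in inflammatory cells.

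All levels below are log2 signals of a gene's probe set, so a difference of 1 is a 2-fold difference, and levels are compared between groups and never between genes. Differences are SP-D-/- minus C57BL/6, given with the standard error of a linear model fitted to all 89 arrays. A gene rose or fell where limma's moderated test gave a Benjamini-Hochberg adjusted p under 0.05 over the 15065 genes tested, and such a gene is called. The number of arrays limits the precision: on data simulated with this design, 27% of genes changed by 1 on the log2 scale were called and 87% of genes changed by 2. The simulated noise was independent between genes and equally spread in all groups, without technical differences. The real arrays were not so, and these shares may not hold for them.

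The arrays of the 2 groups also differed in technical measures. The 3' minus 5' difference of the beta-actin probe sets, which is larger where RNA is shorter or copied less far from its 3' end, was 2.72, 2.27, 2.80 and 3.22 in SP-D-/- replicates 2 to 5, and in C57BL/6 arrays it was lowest at 1.48 and highest at 2.01. The groups did not overlap, with means of 2.75 ± 0.39 (SD, n = 4) against 1.72 ± 0.19 (SD, n = 6) and an exact two-sided permutation p of 0.00952, or 0.019 adjusted over this and the spike level. Gapdh put the groups in the same order, 2.38 ± 0.21 (SD, n = 4) against 1.47 ± 0.27 (SD, n = 6). The exact permutation p was 0.00952, the smallest obtained for groups without overlap. The order of arrays within a group was not the same. SP-D-/- replicate 5, highest for actin, was the lowest SP-D-/- array for Gapdh at 2.08, beside 1.94 in C57BL/6 replicate 6. The mean level of 9 spiked-in control probe sets was 12.04, 10.36, 11.65 and 12.24 in SP-D-/- replicates 2 to 5. In C57BL/6 arrays it lay between 9.93 and 10.48 apart from replicate 5 at 11.90, and the groups differed with an exact permutation p of 0.0571. C57BL/6 replicate 5 thus had a spike level like that of SP-D-/- replicates 2, 4 and 5, and SP-D-/- replicate 3 one like that of the other C57BL/6 arrays. The part of these measures in the gene differences was not tested, beyond fits that hold the actin difference, the spike level or both as covariates.

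**Figure D1:**
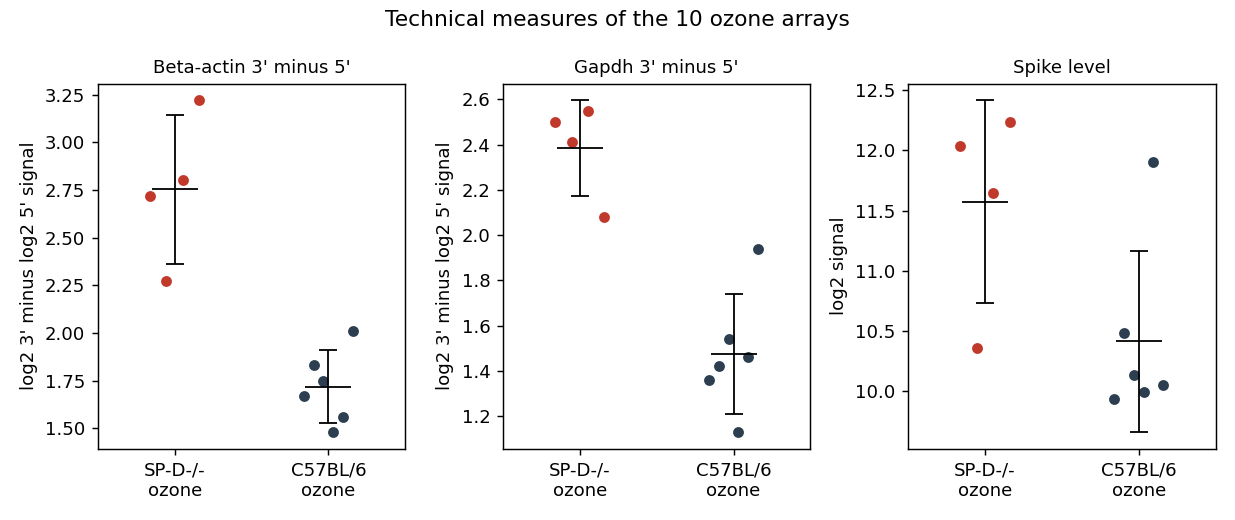
Technical measures of the 10 arrays after ozone, SP-D-/- (4 arrays) left of C57BL/6 (6 arrays): the beta-actin and the Gapdh 3' minus 5' differences on the log2 scale and the mean log2 level of the spiked-in controls. Each point is an array, and the bars are the mean and SD; both 3' minus 5' differences are higher on all SP-D-/- arrays, and C57BL/6 replicate 5 is the high C57BL/6 point for the spike level.

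Elsewhere in the study 6 arrays went against their labels in genes that separate BALB/c from C57BL/6 or in Sftpd. None was among the 10 compared, but all 89 arrays share the estimate of the spread. Of the 6, 3 lay in the SP-D-/- and C57BL/6 groups of the other exposures: SP-D-/- replicate 1 at 96 hours after Af with ozone, which had Sftpd at 10.94, C57BL/6 replicate 1 of the same exposure and C57BL/6 replicate 5 at 168 hours with ozone. The results that rest on them are given below with and without these 6 arrays. Some of the 6 were borderline. BALB/c replicates 4 and 5 at 24 hours after Af in air went against their labels in Sftpd alone, at 8.79 and 7.68. C57BL/6 replicate 5 at 168 hours with ozone had a strain index of 0.02. That index is built from the genes that separate the strains, and is negative for C57BL/6 and positive for BALB/c.

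Across all genes, 120 of the 15065 genes tested were called, 0.797% of them, of which 51 rose (0.339%) and 69 fell (0.458%) in SP-D-/- lungs. The genes that fell moved further: their median difference was -1.48, with a range of -4.64 to -0.76, and 64 of the 69 differed by at least 2-fold. The genes that rose had a median difference of 1.05, with a range of 0.69 to 2.85, and 29 of the 51 differed by at least 2-fold. The 4 SP-D-/- and 6 C57BL/6 arrays did not overlap for 46 of the 51 genes that rose and for 46 of the 69 that fell, and over all genes tested the groups did not overlap for 1182, or 7.85%. Without the 6 arrays that go against their labels, 479 genes were called, 3.18%, all 120 among them. Before adjustment 2760 genes, 18.3%, had a p under 0.05. For 19 of the 120 called genes, 1 group's mean lay under 4.45, the 40th percentile of all values, near the floor of the arrays.

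The levels of the genes that fell were more spread among SP-D-/- arrays. Their median SD was 0.78 over the SP-D-/- arrays and 0.29 over the C57BL/6 arrays, and the SP-D-/- SD was the higher for 60 of 69, against 11413 of the 15065 genes tested. Replicate 5 was the lowest SP-D-/- array for 50 of these 69 genes, and replicate 3 was the highest for 56. C57BL/6 replicate 5 was the lowest C57BL/6 array for 35. The number of calls turned on single arrays of both groups. It was 9 without SP-D-/- replicate 5, 15 without replicate 2, 123 without replicate 4 and 661 without replicate 3. It was 14 without C57BL/6 replicate 4, 18 without replicate 3, 44 without replicate 1, 61 without replicate 2, 89 without replicate 6 and 180 without replicate 5. The fewest of the 120 genes, 8, stayed called without SP-D-/- replicate 5, then 14 without SP-D-/- replicate 2 or C57BL/6 replicate 4 and 18 without C57BL/6 replicate 3. Sftpd, Ctr9, Dtx3, Camkk2 and Pabpn1 were the 5 genes called whichever of the 10 arrays was left out. Of the 40 named called genes other than Sftpd, 4 stayed called without SP-D-/- replicate 5: Ctr9, Dtx3, Camkk2 and Pabpn1. Every other gene named below as called after ozone lost its call there. With the actin difference as a covariate 4 genes were called, with the spike level 52, and with both 14.

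Sftpd, the deleted gene, had the largest difference in either direction. Its level was 5.87, 6.87, 6.24 and 4.42 in SP-D-/- replicates 2 to 5, and in C57BL/6 arrays it was lowest at 10.30, with a median of 10.51 and a highest of 10.67. Every SP-D-/- array lay below every C57BL/6 array. The difference was -4.64 ± 0.56 (SE), a 24.9-fold lower signal, with an adjusted p of 2.67e-08. It was -3.84 in air, and -4.65 after ozone with the actin difference as a covariate. The labels of all 10 arrays thus matched this gene, although where its 1 probe set lies relative to the deletion is not given.

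Sftpa1, which encodes the collectin SP-A and is parted from Sftpd by 1 tested gene on chromosome 14, fell as well. It was at 11.21, 11.55, 11.0 and 10.64 in SP-D-/- lungs, against a lowest of 12.26, a median of 12.88 and a highest of 13.20 in C57BL/6 lungs. The groups did not overlap. The difference was -1.68 ± 0.42 (adjusted p = 0.0331), a 3.21-fold lower signal, and its other probe set differed by -1.5. With the actin difference as a covariate it was -1.71, with an adjusted p of 0.252. Sftpa1 also had differences below 0 elsewhere, -1.26 in air (adjusted p = 0.732) and -1.17 ± 0.19 averaged over the other 5 (adjusted p = 4.47e-05). Without the 6 arrays that go against their labels the air difference was called (adjusted p = 0.0428).

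The other surfactant genes did not pass the test. Of 19 tested genes of surfactant lipid and collectins, Sftpd and Sftpa1 fell and 17 were not called, and the list's median difference was -0.13, against -0.07 over all genes tested. Among the 18 tested markers of alveolar type 2 cells, the surfactant-making cells, Sftpa1 was the 1 called gene, and the median difference was -0.03. The groups overlapped in the mean level of this list, which ranged from 9.31 to 9.85 over SP-D-/- arrays and from 9.43 to 9.86 over C57BL/6 arrays. In such whole-tissue samples, fewer cells of a type and less RNA per cell cannot be told apart.

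Ctr9 rose the most. It encodes a subunit of the PAF1 complex, which travels with RNA polymerase II. Its level was 9.12, 8.86, 9.07 and 9.05 in SP-D-/- lungs, against a lowest of 5.98, a median of 6.18 and a highest of 6.38 in C57BL/6 lungs. The groups lay far apart, by 2.85 ± 0.28 or 7.22-fold, with an adjusted p of 2.17e-11. The same difference was 2.72 in air, and 2.82 after ozone with the actin difference as a covariate. Ctr9 has 3 other probe sets, whose differences ran from -0.61 to 0.90, so the probe set described here stood apart from them.

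Nnt, Ang5 and Ppp1r3e completed the 6 genes that were called after ozone and, with the same sign, in the mean of the other 5 exposures. Nnt and Ppp1r3e were named after their values were seen. Nnt encodes the mitochondrial NAD(P) transhydrogenase and is known for a deletion carried by the C57BL/6J substrain. It was at 10.37, 10.52, 10.61 and 10.20 in SP-D-/- lungs, against a lowest of 8.76, a median of 9.39 and a highest of 9.61 in C57BL/6 lungs, with no overlap. The difference was 1.11 ± 0.27 (adjusted p = 0.0265), and 0.94 ± 0.12 in the mean of the other 5 exposures (adjusted p = 3.11e-08). Ang5, a member of the angiogenin family of secreted ribonucleases, lies 3 tested genes beyond Sftpd. It was at 4.84, 4.87, 4.37 and 5.81 in SP-D-/- lungs and at most 4.05 in C57BL/6 lungs, a difference of 1.31 ± 0.34 (adjusted p = 0.0395) beside one of 1.31 ± 0.15 in the other 5. Ppp1r3e, a glycogen-targeting subunit of protein phosphatase 1, was at 4.24, 5.42, 4.76 and 4.30 in SP-D-/- lungs, against a lowest of 5.37, a median of 6.28 and a highest of 6.41 in C57BL/6 lungs. Replicate 3 of SP-D-/- and replicate 5 of C57BL/6 overlapped for it, and the difference was -1.48 ± 0.35 (adjusted p = 0.0241) beside -0.73 ± 0.15.

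**Figure D2:**
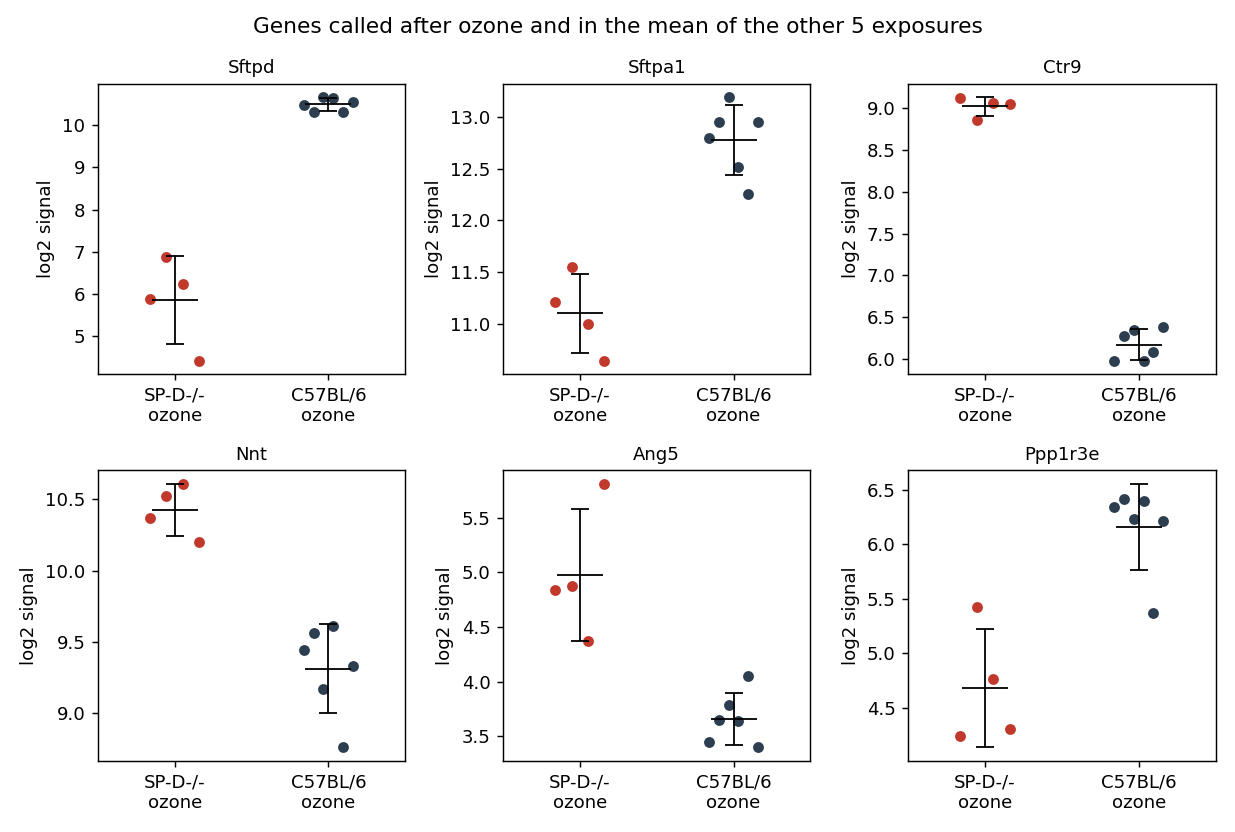
Log2 signal on each array after ozone, SP-D-/- (4 arrays) left of C57BL/6 (6 arrays), for the 6 genes called both after ozone and, with the same sign, in the mean of the other 5 exposures. Points are arrays and bars the mean and SD; 5 of the 6 genes do not overlap between the groups, and Ppp1r3e overlaps by 1 array of each.

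Sftpd and Ctr9 were called in each of the 6 exposures with the same sign. The share of tested genes called beside them was 0.0664% in air, 0.0863% at 24 hours after Af in air, 16.2% at 96 hours with ozone, 0.0199% at 168 hours in air and 0.504% at 168 hours with ozone. Without the 6 arrays that go against their labels these shares were 0.0797%, 0.358%, 25.5%, 0.0199% and 2.27% in the same order, and both genes were called in each exposure. On chromosome 14, where Sftpd lies, 11 of 511 tested genes, or 2.15%, were called after ozone, against 0.797% of all genes, and 9, or 1.76%, were called in the mean of the other 5 exposures, against 0.146%. Among the 100 tested genes nearest to Sftpd, 4 were called after ozone: Sftpa1, Ang5, Mat1a and Ghitm. Mat1a, the methionine adenosyltransferase best known from liver, was at 3.08, 3.6, 3.0 and 2.75 in SP-D-/- lungs, against a lowest of 3.53, a median of 4.95 and a highest of 5.36 in C57BL/6 lungs. Its difference was -1.68 ± 0.33 (adjusted p = 0.00672), with SP-D-/- levels near the floor of the arrays, and in air it was 0.40. Ghitm, a growth hormone-inducible protein of the inner mitochondrial membrane, was at 8.00, 7.97, 7.51 and 5.43 in SP-D-/- lungs, all below the C57BL/6 lowest of 8.59. It differed by -1.49 ± 0.33 (adjusted p = 0.0186), against -0.34 in air. Both calls, like those of most named genes, were lost without SP-D-/- replicate 5.

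Few of the 120 genes were called in air. There 10 genes were called between the genotypes, 0.0664% of those tested, and Sftpd and Ctr9 were the 2 of them also called after ozone. The other 8, given as the full set, all rose in air. They were Saa3, Loxl2, the fibrinogen chains Fgg and Fga, the macrophage product Retnla, Ly6i, the lipid transporter Mfsd2a and the mannose-binding lectin Mbl2. Fga and Fgg are among 14 tested liver-type plasma protein genes, whose median difference in air was 1.83. Of that list, Mup3 ranged from 2.42 to 10.3 over the SP-D-/- arrays in air. The source of these liver-type signals was not tested. After ozone the differences of Retnla, Ly6i, Mfsd2a, Mbl2, Fgg and Fga lay between -0.35 and 0.43. Saa3, an acute-phase serum amyloid A made in the lung, was 3.31 ± 0.52 higher in air (adjusted p = 7.67e-05) and 1.71 ± 0.56 higher after ozone (adjusted p = 0.107). Loxl2, a lysyl oxidase relative that crosslinks collagen and was named after its values were seen, was 2.32 ± 0.41 higher in air (adjusted p = 9.44e-04). After ozone it was at 3.85, 5.88, 4.22 and 4.26 in SP-D-/- lungs and between 3.10 and 3.97 in C57BL/6 lungs, a difference of 0.83 ± 0.44 (adjusted p = 0.295). No gene passed the test of the difference after ozone minus the difference in air in limma, although 1157 genes, 7.68%, had an unadjusted p under 0.05, so a call in 1 exposure and not in the other is not shown to be a difference between them.

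Against the mean of the other 5 exposures, the difference after ozone changed for 119 genes, 0.79% of those tested, of which 46 were higher (0.305%) and 73 lower (0.485%). Without the 6 arrays that go against their labels 582 changed, the 119 among them. Of these 119, 73 were among the 120 genes called after ozone. Both tests use the same ozone arrays, and over all genes their differences correlated at r = 0.963. The overlap is thus partly built in and is not separate evidence. The mean of the other 5 differences itself called 22 genes, 0.146%, and 41 without the 6 arrays. The 6 named above were called after ozone too (10 genes, those 6 among them, without the 6 arrays), and 11 of the remaining 16 had the same sign. With the actin difference as a covariate limma called 0 genes in this contrast, where 968 had an unadjusted p under 0.05, and with the spike level it called 8.

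**Figure D3:**
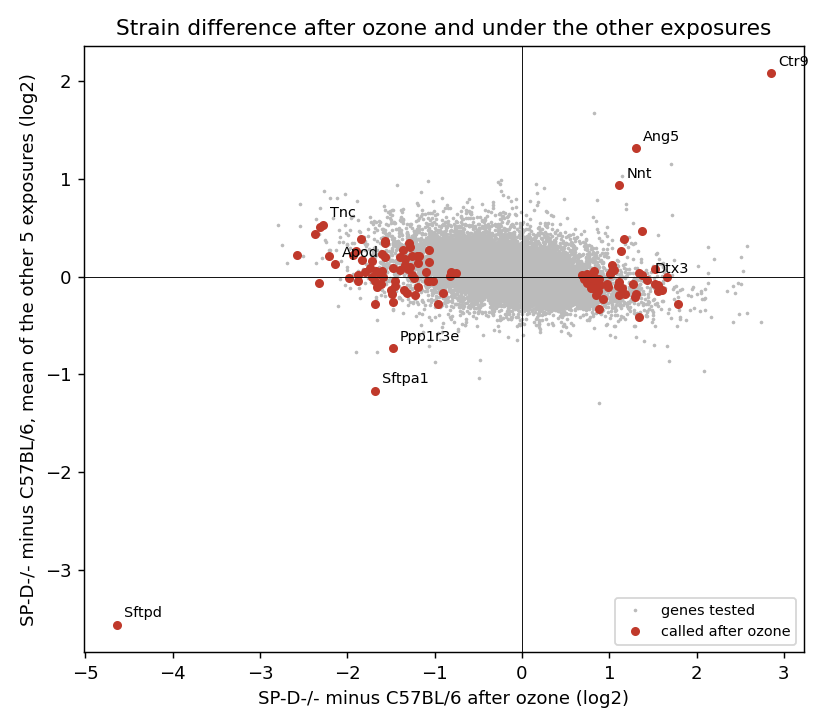
The SP-D-/- minus C57BL/6 difference (log2) after ozone on the horizontal axis and its mean over the other 5 exposures on the vertical axis, for 15065 genes (grey) with the 120 called after ozone in red. Sftpd, Sftpa1 and Ppp1r3e at the lower left and Ctr9, Ang5 and Nnt at the upper right are called on both axes, while most red points lie near 0 on the vertical axis.

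The genes called after ozone can also be followed from air in each genotype, with the same ozone arrays. The median ozone minus air difference of the 51 genes that rose was 0.64 in SP-D-/- lungs and -0.12 in C57BL/6 lungs. For the 69 that fell it was -1.27 in SP-D-/- lungs and 0.14 in C57BL/6 lungs. In air itself, on arrays of other lungs, 50 of the 51 risen genes and 47 of the 69 fallen genes had the same sign of difference between the genotypes, against 48.1% of all genes tested, but with medians of 0.24 and -0.09. The actin difference differed less in air, 1.88 in SP-D-/- arrays against 1.59 in C57BL/6 arrays. Such agreement in sign did not hold in every exposure. In the mean of the other 5 exposures 17 risen and 27 fallen genes shared the sign, against 5151 of all 15065 genes. At 24 hours after Af in air 18 and 22 did, against 5292. At 96 hours with ozone 12 and 8 did, against 3918. At 168 hours 22 and 41 did in air, against 9516, and 25 and 48 with ozone, against 9203.

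The pattern across all genes was not alike between exposures. Over 15065 genes, Pearson's r of the difference after ozone was -0.023 with that in air, -0.388 with 24 hours after Af in air, -0.614 with 96 hours after Af with ozone, 0.353 with 168 hours after Af in air and 0.275 with 168 hours after Af with ozone. The genes share arrays and are not independent, so these values are descriptive. The gap in spike level between SP-D-/- and C57BL/6 arrays was 1.16 after ozone, and in the same order of exposures -0.05, -0.24, -0.95, 0.60 and 0.57. The gap in the actin difference was 1.04 after ozone and 0.28, -0.30, -0.17, -0.01 and -0.20. Without the 6 arrays that go against their labels, r was -0.594 with 96 hours and 0.424 with 168 hours after Af with ozone. With both measures as covariates in the fit, the 5 correlations became 0.283, 0.142, 0.164, 0.112 and 0.118. Within the groups of the 79 arrays outside this comparison, the slope of a gene's level on the actin difference was above 0 for 48 of the 51 genes that rose and below 0 for 65 of the 69 that fell, where 7146 of all genes lay above 0 and 7919 below.

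Of the other genes that rose, Dtx3, a Deltex-family E3 ubiquitin ligase, and Camkk2, the calcium/calmodulin-dependent kinase kinase that acts on AMPK, had the lowest p-values. Dtx3 was at 9.19, 8.55, 8.97 and 8.33 in SP-D-/- lungs, against a lowest of 7.03, a median of 7.26 and a highest of 7.69 in C57BL/6 lungs. The difference was 1.43 ± 0.24 (adjusted p = 3.52e-04). It was 1.12 with the actin difference as a covariate (adjusted p = 0.034), which makes Dtx3 the 1 gene besides Sftpd and Ctr9 called under all 22 settings tried. Its difference in air was 0.33. Camkk2 was at 10.01, 9.99, 10.17 and 9.92 in SP-D-/- lungs and between 7.99 and 9.04 in C57BL/6 lungs, again without overlap. The difference was 1.60 ± 0.29 (adjusted p = 0.00151), but its 3 other probe sets differed by -0.39 to -0.01, so they did not show the rise.

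Pabpn1, the nuclear poly(A)-binding protein that sets the length of poly(A) tails, was at 11.64, 11.26, 11.45 and 11.33 in SP-D-/- lungs and between 9.37 and 10.34 in C57BL/6 lungs. It rose by 1.53 ± 0.29 (adjusted p = 0.00303), and both of its other probe sets were higher, by 0.68 and 1.9. Fubp1, a single-stranded DNA- and RNA-binding regulator of Myc, rose by 1.55 ± 0.38 (adjusted p = 0.03), and both other probe sets were higher, by 0.24 and 0.52. Sugp2, a protein of the SURP and G-patch family linked to splicing, rose by 1.30 ± 0.33 (adjusted p = 0.034), and of its 2 other probe sets 1 was higher. Cdk10, a cyclin M-dependent kinase, was at 8.45, 8.46, 8.15 and 8.06 in SP-D-/- lungs and between 5.69 and 7.41 in C57BL/6 lungs, a rise of 1.52 ± 0.35 (adjusted p = 0.0209). Zfp219 and Zfp128, zinc finger proteins, rose by 1.34 ± 0.29 (adjusted p = 0.0166) and 1.27 ± 0.30 (adjusted p = 0.0241).

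Xpo4, an exportin that carries proteins out of the nucleus, was at 8.78, 6.81, 6.80 and 8.07 in SP-D-/- lungs, against a lowest of 5.31, a median of 5.67 and a highest of 7.52 in C57BL/6 lungs. The highest C57BL/6 value came from replicate 5 and overlapped the SP-D-/- range. The rise was 1.67 ± 0.42 (adjusted p = 0.0331), and all 3 other probe sets were higher, by 0.71 to 1.5. Fscn1, the actin-bundling fascin that marks mature dendritic cells, rose by 1.03 ± 0.25 (adjusted p = 0.0269), with 10.56 to 11.17 in SP-D-/- lungs and 9.44 to 10.24 in C57BL/6 lungs, while its 3 other probe sets differed by -0.02 to 0.13. Acrbp, the acrosin-binding protein of sperm, rose by 1.29 ± 0.29 (adjusted p = 0.0188), although its other probe set differed by -0.36 and SP-D-/- replicate 5 stood high at 8.53 beside 5.80 to 6.58. Npff, a neuropeptide precursor, Plekhd1 and Glipr1l1 rose by 1.17, 1.34 and 1.38 (adjusted p = 0.0418, 0.0296 and 0.0311), and Glipr1l1 had a C57BL/6 mean of 2.84, near the floor.

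Apod had the lowest p among the 15 largest falls other than Sftpd. It encodes the lipid-binding apolipoprotein D, and was at 4.78, 6.32, 5.41 and 4.57 in SP-D-/- lungs, against a lowest of 6.76, a median of 7.22 and a highest of 8.51 in C57BL/6 lungs. No SP-D-/- array reached the C57BL/6 range. The difference was -2.15 ± 0.44 (adjusted p = 0.0102), against 0.11 in air. Tnc, the matrix glycoprotein tenascin-C that is made at sites of injury and repair, was at 5.17, 6.61, 5.74 and 3.82 in SP-D-/- lungs, against a lowest of 7.22, a median of 7.53 and a highest of 8.00 in C57BL/6 lungs. Its difference was -2.28 ± 0.53 (adjusted p = 0.0241), with an ozone minus air difference of -1.27 in SP-D-/- lungs and 1.42 in C57BL/6 lungs. The other probe set of Tnc was higher in SP-D-/- lungs, by 0.62, so the probe sets disagreed in sign.

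Col4a3, the alpha-3 chain of the basement membrane collagen IV of alveoli and glomeruli, was at 6.26, 6.65, 7.90 and 4.16 in SP-D-/- lungs, against a lowest of 7.61, a median of 7.93 and a highest of 8.57 in C57BL/6 lungs. SP-D-/- replicate 4 lay inside the C57BL/6 range. Col4a3 had a log2 difference of -1.74 ± 0.37 (adjusted p = 0.0135), and its other probe set differed by -2.13. Like most calls of named genes, this call was lost without SP-D-/- replicate 5. Of 17 tested markers of alveolar type 1 cells, the flat cells of gas exchange that are sensitive to oxidants, Col4a3 was the 1 called gene. As values, 16 of the 17 were lower in SP-D-/- lungs, with a median of -0.44 against -0.07 over all genes, among them Igfbp2, an insulin-like growth factor-binding protein, at -2.11 ± 0.58 (adjusted p = 0.0607), Hopx at -1.44 ± 0.52 (adjusted p = 0.141) and Ager at -0.30 ± 0.29. These 3 were named after their values were seen, and without the 6 arrays that go against their labels Igfbp2 and Hopx were called (adjusted p = 0.00732 and 0.0218). The mean level of the list was 8.88, 9.10, 9.61 and 8.42 in SP-D-/- replicates 2 to 5 and between 9.49 and 9.74 in C57BL/6 arrays, so SP-D-/- replicate 4 was within the C57BL/6 range.

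The lowest difference after that of Sftpd was in Mmachc. This gene, which processes vitamin B12, was at 3.85, 6.14, 4.13 and 2.65 in SP-D-/- lungs, against a lowest of 5.46, a median of 7.04 and a highest of 7.23 in C57BL/6 lungs. The lowest C57BL/6 value was that of replicate 5, and the difference was -2.58 ± 0.61 (adjusted p = 0.0244). Fundc1, a mitophagy receptor of the outer mitochondrial membrane, had a log2 difference of -2.21 ± 0.52 (adjusted p = 0.0241), with both other probe sets lower, at -1.39 and -0.88. Nipsnap2, a mitochondrial matrix protein, was at 7.23, 8.38, 8.13 and 4.15 in SP-D-/- lungs and between 8.94 and 9.79 in C57BL/6 lungs, a difference of -2.32 ± 0.61 (adjusted p = 0.0452). Mettl15, a methyltransferase for mitochondrial ribosomal RNA, had a difference of -1.90 ± 0.47 (adjusted p = 0.03). Cept1, which makes phosphatidylcholine and phosphatidylethanolamine, was at 6.87, 7.73, 7.20 and 3.07 in SP-D-/- lungs and between 7.78 and 8.54 in C57BL/6 lungs. It differed by -1.98 ± 0.52 (adjusted p = 0.0452), and replicate 5 lay far below the other SP-D-/- arrays. Mboat1, a lysophospholipid acyltransferase, had a log2 difference of -1.93 ± 0.51 (adjusted p = 0.0455).

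The remaining large falls covered other functions. Kif16b, a kinesin of endosomes, had a difference of -2.37 ± 0.63 (adjusted p = 0.0456), and its other probe set one of -2.10. Mpp7, a scaffold of epithelial polarity, differed by -2.33 ± 0.60 (adjusted p = 0.0394), and its 2 other probe sets by -0.23 and -0.11. Gbe1, the glycogen branching enzyme, Kcnj8, a subunit of ATP-sensitive potassium channels of vessels, and Ints6, an Integrator subunit, differed by -1.83, -1.88 and -1.87 (adjusted p = 0.0396, 0.0372 and 0.0411). For these 3 and for Nme7, which differed by -1.85 ± 0.50 (adjusted p = 0.0487), the groups overlapped. Entpd2, an ectonucleotidase that splits extracellular ATP and was named after its values were seen, had a difference of -0.96 ± 0.24 (adjusted p = 0.0359). It was the fourth gene called with the actin difference as a covariate, at -1.18 (adjusted p = 0.034).

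**Figure D4:**
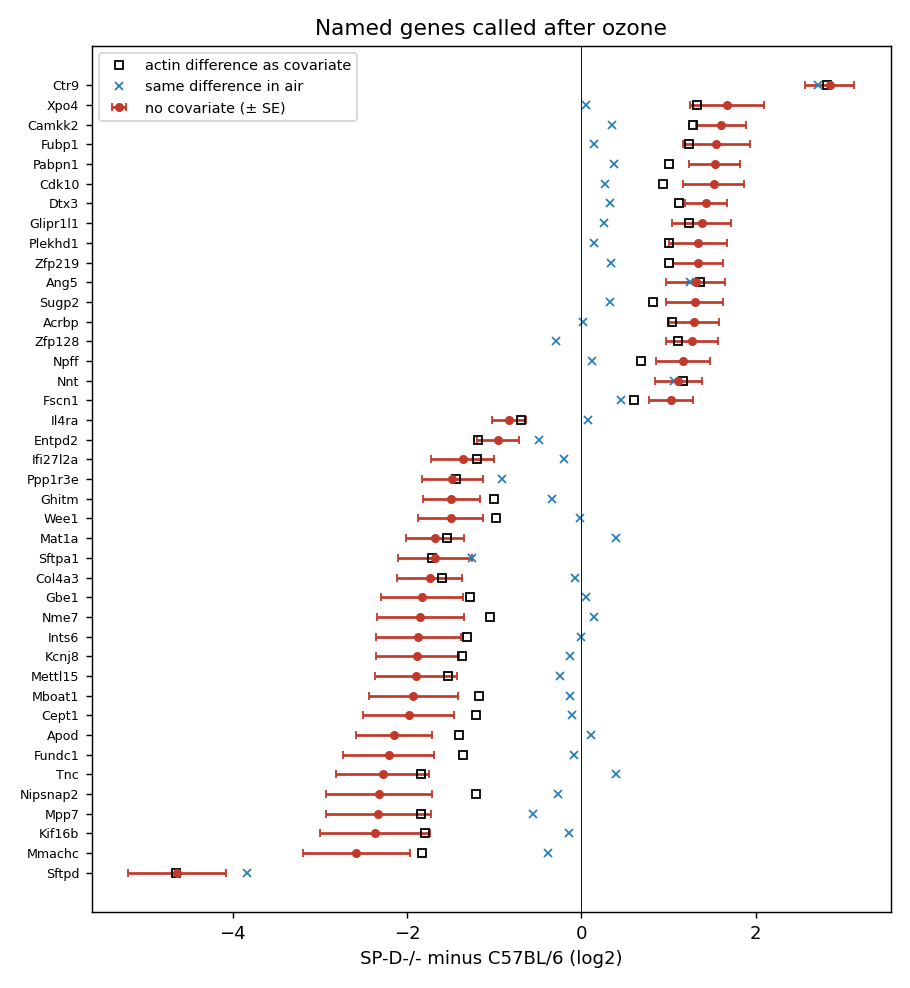
SP-D-/- minus C57BL/6 differences (log2) of the named genes called after ozone: the difference after ozone with its standard error (red), the same with the actin difference as a covariate (open squares) and the difference in air (blue crosses). Sftpd, Sftpa1, Ctr9, Ang5 and Nnt differ by 1.06 or more in size with the same sign in all 3, while the air values of most other genes are nearer to 0 than their ozone values.

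Immune and inflammatory lists held 1 called gene or none each. Il4ra, the receptor chain for interleukin-4 and interleukin-13, was the 1 of 19 tested genes of type 2 immunity and alternative macrophage activation that was called. It was at 4.10, 4.55, 3.86 and 3.50 in SP-D-/- lungs, against a lowest of 4.63, a median of 4.80 and a highest of 5.07 in C57BL/6 lungs, with no overlap. It had a log2 difference of -0.83 ± 0.20 (adjusted p = 0.03), at levels close to the floor of the arrays. Among 21 tested interferon-stimulated genes, Ifi27l2a had a log2 difference of -1.36 ± 0.36 (adjusted p = 0.0452), with 5.39 to 7.28 in SP-D-/- lungs and 6.90 to 8.40 in C57BL/6 lungs. The median of that list was -0.86, and 16 of the 21 were lower as values, among them Usp18 at -2.0 ± 0.66 (adjusted p = 0.108) and Ifit2 at -1.21 ± 0.44 (adjusted p = 0.141), both named after their values were seen. Its median was -0.17 in air.

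No gene was called among the 20 tested inflammatory chemokines and cytokines, where the median was -0.12 and 2 had an unadjusted p under 0.05. Il1b differed by 0.58 ± 0.29 (adjusted p = 0.265) and Cxcl14 by -1.24 ± 0.62 (adjusted p = 0.27). None of 14 tested neutrophil markers was called, with Cxcr2, the receptor for neutrophil-attracting chemokines, at 1.36 ± 0.41 (adjusted p = 0.0864) and Mmp9 at -1.09 ± 0.44 (adjusted p = 0.184). The neutrophil list's mean level ran from 5.43 to 6.20 on SP-D-/- arrays and from 5.55 to 6.13 on C57BL/6 arrays. Among 12 tested acute-phase genes and metallothioneins, Saa3 and Saa2 differed in opposite directions, by 1.71 ± 0.56 and -1.58 ± 0.60 (adjusted p = 0.107 and 0.159), and none was called. Pattern recognition receptors gave 0 calls of 18, with Tlr4, the endotoxin receptor, at -1.82 ± 0.65 (adjusted p = 0.139) and the scavenger receptor Msr1 at 0.73 ± 0.28 (adjusted p = 0.156). Complement gave 0 of 18, with the inhibitor Cd59a at 1.17 ± 0.39 and the C1 protease C1ra at -1.46 ± 0.62. Genes of MHC class II and antigen presentation gave 0 of 12, with H2-Aa at 0.60 ± 0.23 and H2-Ob at -0.83 ± 0.41.

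Macrophage markers, of interest because SP-D-/- lungs are known for foamy macrophages, were not called after ozone. Lipid-laden macrophage and lysosome genes had a median of 0.28 over 17 tested genes, 11 of them higher, against -0.07 over all genes. Plin2, which coats lipid droplets, was at 0.91 ± 0.34 (adjusted p = 0.153), and the lysosomal protease Ctsd at 0.61 ± 0.25 (adjusted p = 0.19). Ctsd was called in the mean of the other 5 exposures, at 0.48 ± 0.11 (adjusted p = 0.0247). Of 16 tested alveolar macrophage markers 13 were lower as values, with a median of -0.28, Fabp4 at -2.02 ± 0.72 and Cd9 at -1.56 ± 0.52 (adjusted p = 0.138 and 0.116). Interstitial macrophage and monocyte markers had a median of -0.19 over 16 genes, with Plac8 at -1.44 ± 0.55 and Apoe at -0.95 ± 0.41.

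Lymphocyte and granulocyte markers gave no call apart from Fscn1, 1 of 10 tested dendritic cell markers. The T cell transcription factors Bcl11b and Gata3 were each at 1.27, with adjusted p-values of 0.0911 and 0.156. The median of 14 T cell markers was 0.21, with 9 higher and 5 lower as values. B and plasma cell markers had a median of -0.11 over 13 genes, with Cd79b, a chain of the B cell receptor, at -1.47 ± 0.57 and the B cell transcriptional coactivator Pou2af1 at -1.13 ± 0.52. NK and cytotoxic cell markers had a median of -0.13 over 13 genes, with granzyme A, Gzma, at -1.66 ± 0.84 and perforin, Prf1, at -0.40 ± 0.21. The histamine-making enzyme Hdc was at 1.20 ± 0.41 (adjusted p = 0.128) and Mcpt8 at 0.23 ± 0.36 among 6 mast cell and basophil markers. Siglecf at -0.98 ± 0.39 and Il5ra at 0.41 ± 0.51 led 5 eosinophil markers.

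Airway epithelial lists held no called gene. Club and secretory cell genes had a median of -0.18 over 18 tested genes, with the cytochrome Cyp2a5 at -1.76 ± 0.68 and the GABA receptor subunit Gabrp at -1.20 ± 0.40 (adjusted p = 0.162 and 0.109). Goblet and mucus genes had a median of -0.16 over 13, with Agr2, needed for mucin folding, at -1.36 ± 0.61 and Galnt12 at -0.87 ± 0.40. Ciliated cell genes had a median of 0.15 over 18, and their leading members, Rsph1 at 0.89 ± 0.32 and Hydin at -0.78 ± 0.34, pointed opposite ways. Krt13 at 0.94 ± 0.53 and Krt15 at -1.0 ± 0.70 did so too among 10 genes of basal and stressed epithelium.

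Fibroblast, smooth muscle and matrix genes were mostly lower as values, with 1 call. The median of 20 fibroblast and smooth muscle genes was -0.71, and 18 of them were lower. Actg2, a smooth muscle actin, was at -2.09 ± 0.68 and the proteoglycan decorin, Dcn, at -1.30 ± 0.40 (adjusted p = 0.107 and 0.0921). That list's mean level was 7.41, 7.75, 7.79 and 7.29 in SP-D-/- replicates 2 to 5, against 7.86 in C57BL/6 replicate 5 and 8.18 to 8.44 in the other C57BL/6 arrays. Its members' slope on the actin difference in the 79 other arrays had a median of -0.23, against -0.02 over all genes. Median slopes varied between the lists with low median differences, and their part in those differences was not tested. The median slope was 0.04 for alveolar type 1 markers, -0.04 for skeletal muscle and for adipocyte genes, and -0.06 for liver-type plasma protein genes. It was -0.12 for interferon-stimulated genes. Of 24 matrix and remodelling genes Tnc was the 1 called gene and 19 were lower. The median of these 24 was -0.53, with a median actin slope of -0.30. Of 22 endothelial genes 12 were lower, near the share over all genes tested (8271 of 15065), and the median was -0.15, with a median actin slope of -0.26, Egfl7 at 0.74 ± 0.22 (adjusted p = 0.0874) and Sox17 at 0.64 ± 0.29. Mesothelial Krt19 and Gpm6a were at -1.20 ± 0.62 and -0.81 ± 0.64, among 8 genes with a median of -0.40.

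After ozone, markers of muscle, liver and fat, tissues that lie beside the lung or in its vein walls, were higher on some C57BL/6 arrays than on any SP-D-/- array. Under other exposures some were high in SP-D-/- lungs. Tnnt3 had a mean of 9.67 in SP-D-/- lungs at 168 hours after Af with ozone, against 4.84 in C57BL/6 lungs. In air the median difference of liver-type plasma protein genes was 1.83, and that of skeletal muscle genes was -0.75. Skeletal muscle genes had a median of -1.51 over 13, all lower as values and none called. Their mean level was 4.35, 4.43, 4.24 and 4.45 in SP-D-/- replicates 2 to 5, while C57BL/6 replicates 2 and 4 stood at 8.76 and 7.77 and the other C57BL/6 arrays at 4.39 to 4.74. Tnnt3, a fast muscle troponin, was at -2.75 ± 1.09 and the myosin light chain Myl1 at -1.79 ± 0.63. Liver-type plasma protein genes had a median of -0.64 over 14 and were high on C57BL/6 replicates 4 and 6, at 6.73 and 6.92, beside 4.32 to 4.72 on SP-D-/- arrays. Pon1 and Mup3 were at -1.67 ± 0.60 and -1.96 ± 0.75. Adipocyte genes had a median of -0.88 over 8, with mean levels of 3.94 to 4.55 on SP-D-/- arrays, against 4.20 on C57BL/6 replicate 5 and 5.13 to 5.80 on the other C57BL/6 arrays. Adiponectin, Adipoq, was at -2.29 ± 0.71 and resistin, Retn, at -1.23 ± 0.40 (adjusted p = 0.0934 and 0.108). All 13 genes of the cardiac muscle around pulmonary veins were lower as values, with a median of -0.90 and a median actin slope of -0.29. Their mean level was 6.20 to 7.93 on SP-D-/- arrays, against 6.67 on C57BL/6 replicate 5 and 7.98 to 8.61 on the other C57BL/6 arrays, with Pln at -0.89 ± 0.39 and Ryr2 at -0.96 ± 0.57. Red cell and platelet genes had a median of -0.04 over 9, with Ppbp at -0.80 ± 0.49 and Bpgm at -0.85 ± 0.54.

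Oxidant and stress response lists, which cover genes that ozone is known to engage, held no called gene. None of 20 NRF2-driven antioxidant genes was called, although 15 were lower as values, with a median of -0.44 and 6 unadjusted p-values under 0.05, where 18.3% of all genes had one. Their slope on the actin difference in the 79 other arrays had a median of -0.29, against -0.02 over all genes. The peroxiredoxin Prdx1 was at -0.87 ± 0.31 and sulfiredoxin, Srxn1, at -0.91 ± 0.33 (adjusted p = 0.14 and 0.141). Heat shock genes had a median of -0.62 over 9 and a median actin slope of -0.25, with the chaperones Hspe1 at -0.77 ± 0.31 and Hsp90aa1 at -1.05 ± 0.46. Genes of the unfolded protein response had a median of -0.26 over 20, with Dnajc3 at -1.32 ± 0.40 (adjusted p = 0.0856) and Sdf2l1 at -0.94 ± 0.31. Immediate early genes had a median of -0.17 over 19, with Jund at 0.56 ± 0.17 (adjusted p = 0.0856) and Ccn1 at -0.97 ± 0.37.

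Of 18 tested clock and clock output genes, Wee1, the kinase that holds back mitotic entry and is driven by the clock in liver, was the 1 that fell, with a log2 difference of -1.5 ± 0.37 (adjusted p = 0.03). It was at 4.97, 5.92, 4.50 and 3.62 in SP-D-/- lungs and between 5.80 and 6.70 in C57BL/6 lungs, with 1 SP-D-/- array inside the C57BL/6 range. The list's median was -0.55. Glucocorticoid-responsive genes had a median of -0.14 over 15 and a median actin slope of -0.26, with Fkbp5 at -0.86 ± 0.29 and Sgk1 at -0.49 ± 0.22. Cholesterol synthesis genes had a median of -0.36 over 16, with Fdps at -1.94 ± 0.61 (adjusted p = 0.101) and Nsdhl at -1.07 ± 0.38. The phospholipase Pla2g4a was at -1.55 ± 0.53 and thromboxane synthase, Tbxas1, at 0.77 ± 0.29 among 14 eicosanoid enzymes with a median of -0.23. Cell cycle genes had a median of -0.11 over 26, with Mki67 at 0.60 ± 0.35 and Aurka at -0.57 ± 0.34. Ribosome and respiratory chain genes had a median of -0.17 over 18 and a median actin slope of -0.29, with Ndufa4 at -0.97 ± 0.38 and cytochrome c, Cycs, at -0.73 ± 0.29. The glucocorticoid, cholesterol, eicosanoid, cell cycle and ribosome lists held no called gene.

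The lists' calls also depended on the 6 arrays that go against their labels. The share of all genes tested that was called rose from 0.797% with all 89 arrays to 3.18% without the 6. Beside it, the lists with a called gene rose from 8 of 43 to 20, so that rise is not shown to be particular to the lists. Without the 6 arrays, each of the 20 held 1 to 3 called members. Among the genes named above, Prdx1 (adjusted p = 0.0136), Dnajc3 (0.0171), Hdc (0.0136), Bcl11b (0.0208), Fdps (0.024), Nsdhl (0.0396), Cd9 (0.0392), Actg2 (0.0406), Gabrp (0.045), Cd59a (0.0421), Jund (0.0421) and Egfl7 (0.00542) were called there, all with the same sign.

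**Figure D5:**
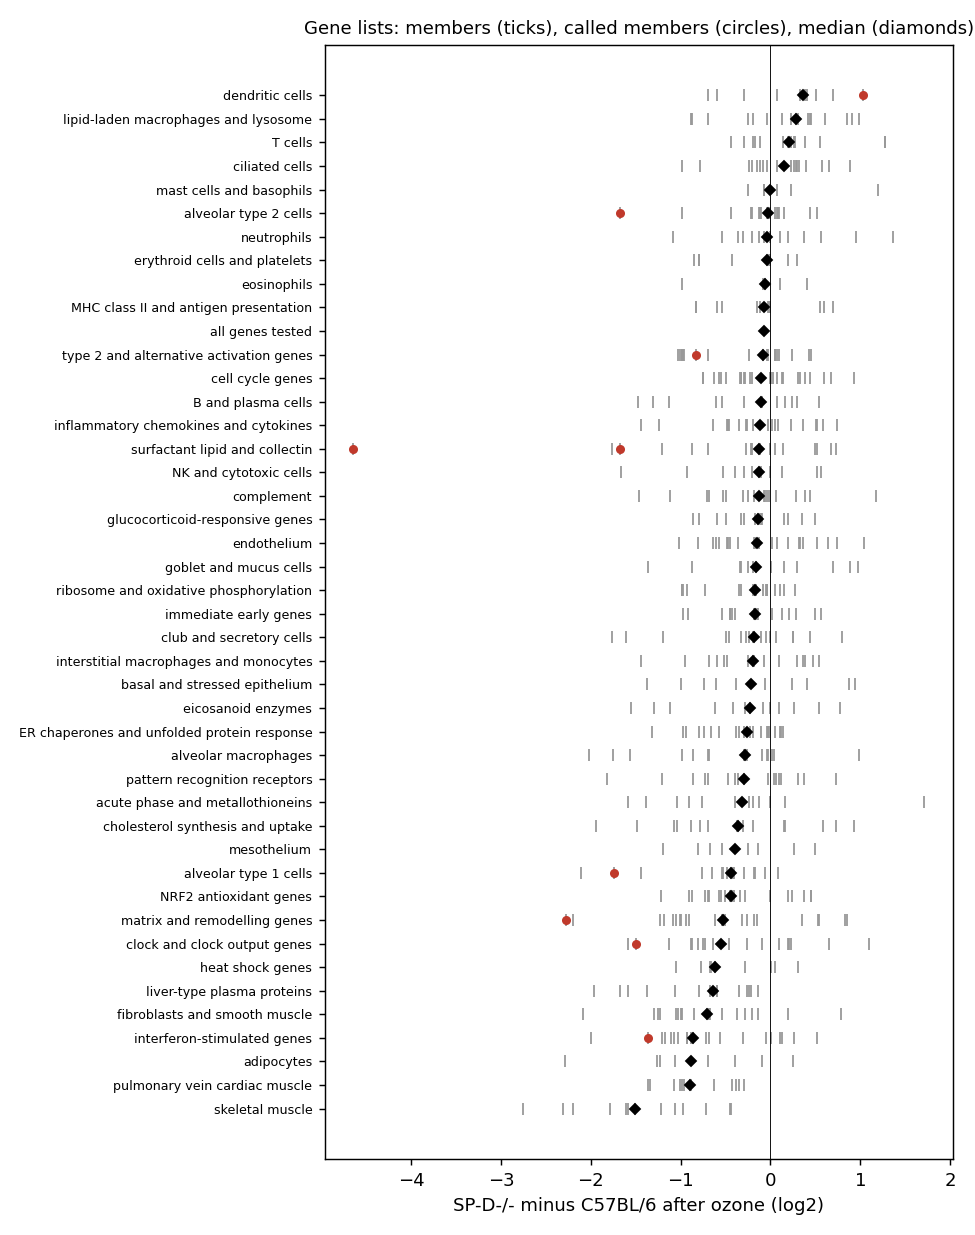
SP-D-/- minus C57BL/6 differences (log2) after ozone by gene list: ticks are tested members, red circles called members and diamonds the median of each list, with all 15065 genes tested as a line of its own. Called members appear in 8 lists, and skeletal muscle, cardiac muscle and adipocyte genes have the lowest medians, at -1.51, -0.90 and -0.88.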

How the data were processed

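The values were the authors' deposited log2 signals, 1 per probe set and array, in the series' value table; how they were summarised and normalised is not given in the sources used here. Sorted values were identical on all 89 arrays, so the table had been quantile normalised, and no 2 arrays correlated above 0.990. Of 45141 probe sets, 28898 carried 1 gene symbol in the platform annotation, 551 several and 15692 none. For each of 17097 genes the brightest probe set on average was used, and 15065 genes above 4.45 (the 40th percentile) on at least 4 arrays were tested. Groups were taken from the titles. limma 3.58.1 (R 4.3.3) was fitted with a mean per group over 89 arrays in 18 groups, with empirical Bayes moderation and Benjamini-Hochberg adjustment over all genes tested. Single measures used exact two-sided permutation tests over the 210 regroupings of the arrays (scipy 1.17.1). The fit was checked on simulated data and gave 7 false calls there.

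The genes and lists were chosen with earlier results of these data known. The named genes were Sftpd, the 15 largest called rises and falls, per list up to 3 called members or else the 2 with the lowest p, called genes among the 50 nearest on each side of Sftpd, and genes called in every exposure. Genes named otherwise are marked so. Alternatives were cyclic loess, the mean of all probe sets, no or a stricter filter, a fit of only the groups compared, a replicate block, technical covariates and leaving out arrays. By 40 genes that separate BALB/c from C57BL/6 in air or by Sftpd, 6 arrays went against their labels, some of them narrowly. None was among the 10 compared, 3 were SP-D-/- or C57BL/6 arrays of the other exposures, and results are given with and without them.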

Additional observations from a re-analysis of the deposited data

Results flagged for a closer look

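Levels on 1 array stood apart from the rest of their group in 28 of 228 sets of values examined, where chance gives about 1 in 20, and C57BL/6 replicate 5 was that array in 21. Its spike level was 11.90, beside 9.93 to 10.48 on the other C57BL/6 arrays. On that array Xpo4 was at 7.52, Il5ra at 7.16, Mcpt8 at 5.47 and Tbxas1 at 6.95, above the other C57BL/6 arrays. Below them on the same array were Zfp219 at 6.23, Mmachc at 5.46, Nme7 at 5.16, Cyp2a5 at 5.06, Galnt12 at 3.73, Cd79b at 6.68, Gata3 at 3.23, Adipoq at 2.53 and C1ra at 6.94. The same held for Fdps at 5.84, Sdf2l1 at 4.93, Hspe1 at 8.08, Pla2g4a at 3.78, Mat1a at 3.53, Ppp1r3e at 5.37 and Loxl2 at 3.10. Mboat1 was high on C57BL/6 replicate 4, at 8.14, and H2-Aa low on C57BL/6 replicate 3, at 8.96.

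Among SP-D-/- arrays, replicate 5 had Cxcr2 at 7.72, beside 4.29 to 4.78 on the others, and Hsp90aa1 at 5.63, beside 8.41 to 8.74. Replicate 3 had Retn at 5.23 and Pla2g4a at 5.29, both above the others. Replicate 2 had Gpm6a at 6.80, below the others. What set these arrays apart was not tested.

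The difference between the genotypes after ozone departed from its mean over the other 5 exposures for 119 genes in limma's test of that contrast. The named genes among them departed upwards by 1.74 for Camkk2, 1.70 for Fubp1, 1.61 for Pabpn1, 1.45 for Cdk10, 1.47 for Dtx3, 1.75 for Plekhd1, 1.30 for Zfp219, 1.48 for Sugp2, 1.5 for Acrbp, 1.35 for Zfp128 and 1.36 for Npff. Downward departures were -2.79 for Mmachc, -2.81 for Kif16b, -2.83 for Nipsnap2, -2.81 for Tnc, -2.43 for Fundc1, -2.27 for Apod, -2.15 for Mboat1 and -2.16 for Mettl15. Nme7 departed by -2.23, Gbe1 by -2.01, Col4a3 by -1.83, Il4ra by -0.83 and Mat1a by -1.41. Most of these genes were named for their differences on the same ozone arrays, so such departures are partly built in. With the actin difference as a covariate this contrast called 0 genes.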

How the results depend on the processing

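The difference of Sftpd kept its direction and its call under every setting run, between -4.98 and -3.96. The 120 calls after ozone numbered 111 to 148 with cyclic loess, the mean of all probe sets, no filter or a stricter filter. They numbered 229 in a fit of only the 2 groups compared, with 56 of the 120 among them, 479 without the 6 arrays that go against their labels, 52 with the spike level as a covariate, 4 with the actin difference and 14 with both. With both covariates and without the 6 arrays, a setting chosen after seeing the data, they numbered 42. Leaving out 1 of the 10 arrays gave 9 to 661. In air the 10 calls became 28 in a fit of only the groups compared and 7 to 13 elsewhere. In the mean of the other 5 exposures the 22 calls became 41 without the 6 arrays, 76 with the spike level, 82 with both covariates and 113 with both and without the 6 arrays. The difference after ozone minus that in air had 0 calls in all settings other than leaving out an array, which gave 0 to 3. Against the mean of the other 5, the 119 calls became 244 with cyclic loess, 52 in a fit of only the groups compared, 582 without the 6 arrays, 8 with the spike level, 0 with the actin difference or with both covariates, and 5 with both and without the 6 arrays. Leaving out 1 array gave 4 to 992 there. In these cases the cause was not tested.

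The replicate numbers did not pair the samples by the check set for it: the residuals of same-numbered arrays correlated at -0.157, 0.547, 0.052 and 0.339 for replicates 2 to 5. With the replicate number as a block 12 genes were called after ozone and 16 against the mean of the other 5. The spike level differed by 0.94 to 1.56 and the actin difference by 0.88 to 1.20 when 1 array was left out, with an exact p for the spike level of 0.0476 without SP-D-/- replicate 3 and 0.0317 without C57BL/6 replicate 5. No named gene changed its sign among called values. The signal of the arrays may limit genes near or below 4.45, where differences could be understated, which was not tested.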
